A study of Rattus norvegicus with 10 samples.

Results

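Small noncoding RNA genes were examined in round spermatids, the haploid cells formed by meiosis in the testis, of young and aged Brown Norway rats. The genes were the rows that the deposited annotation classes as snoRNA, scaRNA, snRNA or miRNA and whose mean over the 10 libraries was at least 1 FPKM (fragments per kilobase of gene, scaled to the size of the library). Of the 4768 rows of these classes, among 32545 rows in all, 226 met this rule. The working name for them was small nuclear and nucleolar RNA genes, but 114 of the 226 (50.4%) are annotated as microRNA genes, against 59 snoRNA, 50 snRNA and 3 scaRNA genes. The members were chosen by their mean level over all 10 libraries, so levels are given as a description, and the choice did not use the age groups.

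All rats were wild type. The young group held 5 samples from rats of 4 to 6 months and the aged group 5 samples from rats of 18 to 20 months, both on free food and water. Germ cells were separated by STA-PUT, in which testis cells settle at different speeds, and libraries were made from total RNA with a SMARTer mRNA kit. Whether the 5 samples of a group are 5 animals is not said in the labels. The p-values therefore measure only the spread between these samples, which may be technical. Prm1, a protamine and spermatid marker, had mean levels of 12150 ± 3121 (young) and 10130 ± 1373 FPKM (aged), and Prm2 of 818 ± 216 and 760 ± 116 FPKM (SD, n = 5). None of the 13 round spermatid markers was listed at 0.

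Small nucleolar RNAs (snoRNAs) guide chemical changes of ribosomal RNA: the C/D class guides ribose methylation and the H/ACA class guides conversion of uridine to pseudouridine. Small Cajal body RNAs (scaRNAs) do the same for the spliceosomal small nuclear RNAs (snRNAs), of which U1, U2, U4 and U6 take part in removing most introns, U12 serves a rare intron class and U7 helps to form the 3′ ends of histone messages. MicroRNAs are cut from longer hairpin transcripts and repress messages that pair with their seed, bases 2 to 8. In vertebrates many snoRNAs and some microRNAs lie inside introns of host genes and are released from the host's transcript. Mature forms of these RNAs carry no poly(A) tail, and the files do not tell a mature RNA from its precursor or from another transcript across the same bases.

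RefSeq (GRCr8 table) held an entry for 34 of the 37 microRNA genes with a Mir symbol and a mature sequence for 32 of them, with 49 distinct mature sequences. The other 77 microRNA genes carry clone names only. The sequences below are those of the Mir genes with most fragments, of the pairs that share a seed, and of Mir3074, which had the smallest unadjusted p for age of all members. They are written 5′ to 3′ with the seed in capitals.
miR-1956-5p: aGUCCAGGgcugagucagcgga
miR-1956-3p: uGGCUGGCaccuggacgu
miR-3566: cUGCCUAAcaaugaacuacc
miR-760-3p: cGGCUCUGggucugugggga
miR-3064-3p: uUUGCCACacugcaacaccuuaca
miR-132-3p: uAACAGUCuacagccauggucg
miR-212-3p: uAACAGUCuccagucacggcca
miR-25-3p: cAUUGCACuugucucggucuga
miR-92b-3p: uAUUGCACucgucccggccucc
miR-3074: gAUAUCAGcucaguaggcaccg

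The values stood for few fragments. The members were 42 to 214 bp long (median 101 bp), while the other 12759 genes at this level had a median length of 1912 bp. Over 100 bp, 1 FPKM stood for 1.46 to 1.86 fragments, depending on the library. The mean number of fragments per library ranged from 1.1 to 343.3 over members, with a median of 3.85, against a median of 279.8 for the other genes. A mean under 10 fragments was found for 178 members (78.8%) and for 296 (2.32%) of the other genes. Only 5 members reached 100 fragments. A single count of 4 has an exact 95% Poisson interval of 1.09 to 10.24 and a count of 10 one of 4.795 to 18.39, and such intervals cover counting error only.

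**Figure D1:**
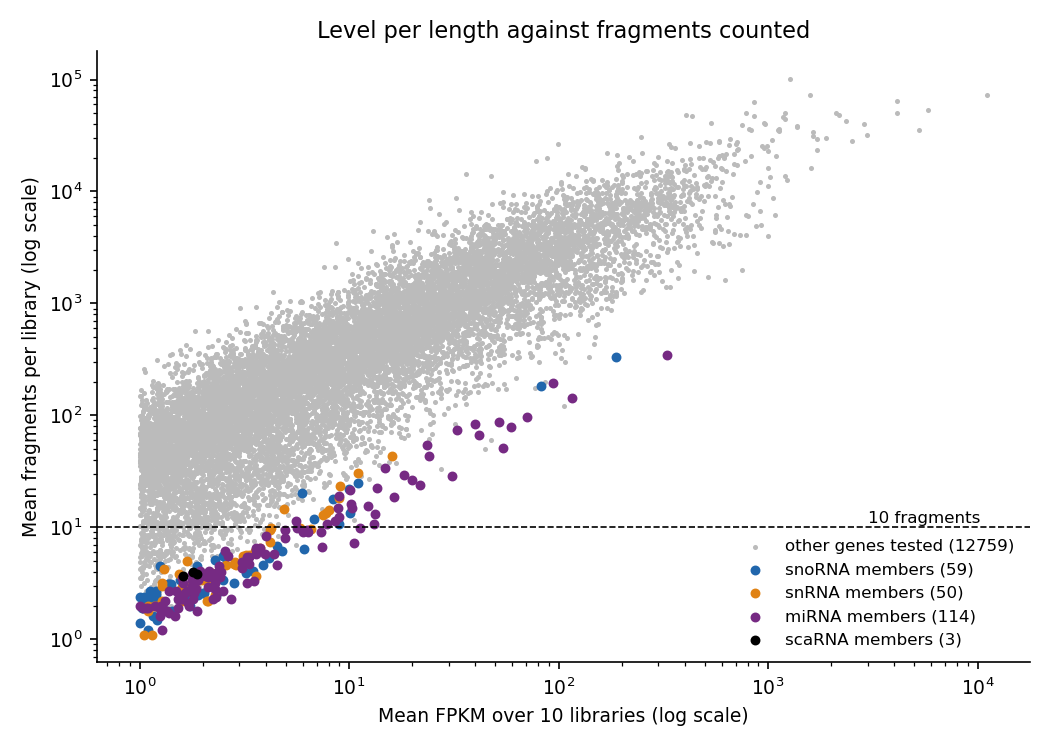
Mean FPKM (x axis, log scale) against mean recovered fragments per library (y axis, log scale) for the 12985 genes at or above 1 FPKM on average; each point is 1 gene, members are coloured by class and the dashed line marks 10 fragments. At the same FPKM the members lie along the lower edge of the other genes, and 178 of the 226 lie under the line.

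Of the 4768 rows, 3243 had no fragment in any library. Among the 226 members, 129 had a fragment in all 10 libraries and 97 had at least 1 library at 0. Together the members took 0.0174% to 0.0204% of all fragments per library but 0.338% to 0.404% of the summed FPKM, since short genes weigh more per fragment. The fragments were concentrated in few genes: Mir1956 and SNORA44 held 21.3% of all member fragments, and the 48 members with a mean of 10 or more held 78.2%. Just inside the level rule lay Mir3555 at 1.001 FPKM (2 fragments per library) and snoU2_19 at 1.01 FPKM (1.4 fragments), and just outside it a U6 copy at 0.995 FPKM and SNORD44 at 0.988 FPKM.

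The members together took a smaller share of the fragments in every aged library than in any young one. Their summed CPM (fragments counted, scaled to a library of 1000000) stood at 201, 202, 204, 199.8 and 194 in young replicates 1 to 5. In aged replicates 1 to 5 it stood at 181, 174, 183, 188 and 187. The means were 200.3 ± 3.67 and 182 ± 5.71 (SD, n = 5), a ratio of 0.911. No test was made of this sum, because the members were chosen with results of these data known. Without aged replicates 1 and 2, which had the highest summed levels of markers of other testis cells (below), the ratio was 0.928. The separation depended on the 2 members with most fragments. Without Mir1956 and SNORA44, a setting chosen after seeing the data, the sum of young replicate 5 lay below that of aged replicate 1. In such bulk samples, fewer cells of a type and less RNA per cell cannot be told apart.

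**Figure D2:**
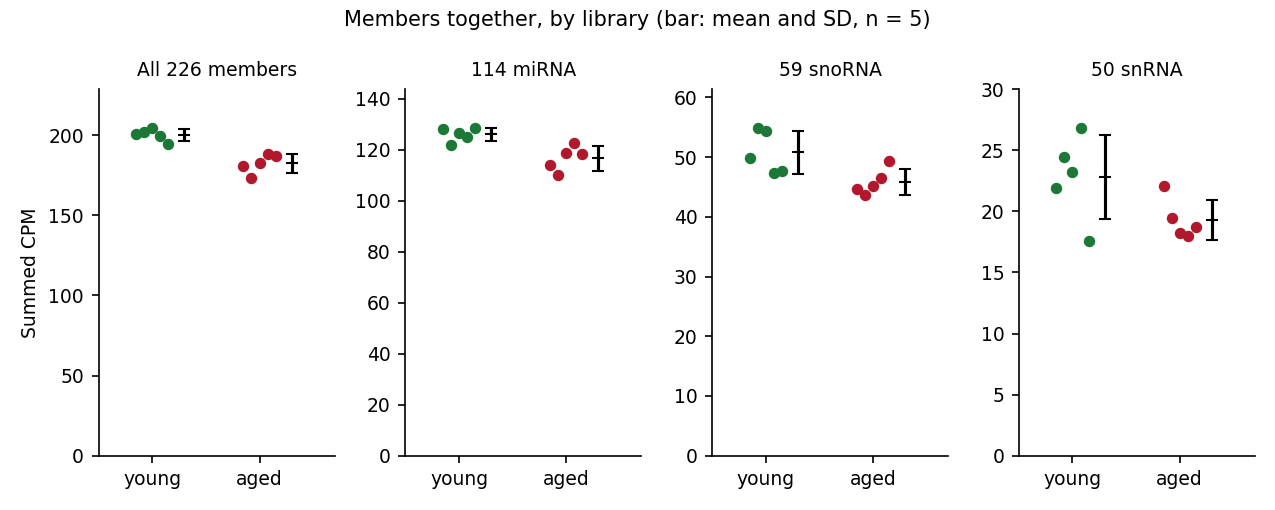
Summed CPM of the members (y axis, from 0) in each young (green) and aged (red) library, for all 226 members and for 3 classes; bars show the mean and SD of 5 libraries. The 2 groups are apart only in the panel of all members (194 to 204 against 174 to 188); in the 3 classes some libraries of the groups overlap.

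No single member passed the test for age. With limma on log2(FPKM + 1), 0 of the 12985 genes tested were called after Benjamini-Hochberg adjustment (0%), and the smallest adjusted p, 0.28, was shared by 5 genes, of which Mir3074 is a member and the other 4 are not. At an unadjusted p under 0.05 there were 28 members (12.4%), close to the 11.9% of all genes tested. Of the 28, 25 were lower in aged samples, 11.1% of members beside 6.35% of all genes, and 3 were higher, 1.33% beside 5.54%. Of the 25 lower members, 11 reached 1 FPKM only in the young mean, where no other direction is possible. Where both group means were at least 1 FPKM, a limit added after seeing the data, 14 of 187 members were lower (7.49%), beside 6.28% of 12492 genes, and 3 were higher (1.60%), beside 4.84%. The share of lower members was then nearer the background, while that of higher members stayed below it. This limit acts on the group means, so it drops genes by their difference between the groups. With voom on the recovered fragments, 0 genes were called, and 18 members were lower and 1 higher at that level, beside 4.55% and 7.24% of all genes. The split of all genes depends on the scaling (719 higher and 825 lower with limma, 940 and 591 with voom), while members were mostly lower with both.

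The median fitted difference, aged minus young, was -0.17 on the log2 scale over members and -0.02 over all genes, and 148 members (65.5%) lay below 0, beside 54.5% of all genes. The median over members was -0.19 with TPM scaling, -0.17 with quantile scaling and -0.19 with voom. This median rests in part on genes at the edge of the level rule. It was -0.10 over the 187 members with at least 1 FPKM in both group means. Another 31 members reached 1 FPKM only in the young mean and 8 only in the aged mean, and these could differ in 1 direction only. Among the 48 members with at least 10 fragments the median was -0.09, with 31 below 0. The 296 other genes under 10 fragments had a median of -0.04 and the 179 other genes no longer than the longest member one of -0.02. Of the other noncoding classes, the median was -0.46 over 9 rRNA genes, with 7 below 0, -0.29 over 11 misc_RNA genes, with 8 below 0, and -0.01 over 1319 lincRNA genes.

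**Figure D3:**
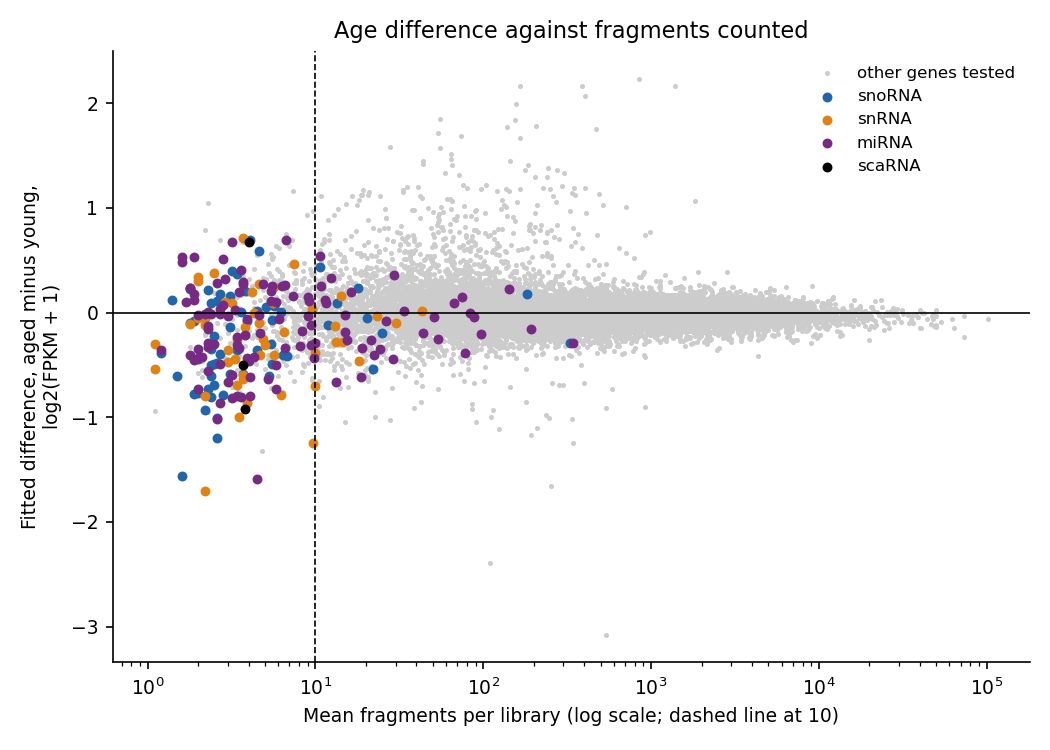
Fitted difference between aged and young samples on the log2(FPKM + 1) scale (y axis) against mean fragments per library (x axis, log scale) for every gene tested; members are coloured by class, other genes are grey and the dashed line marks 10 fragments. The points fan out to the left of the line, where 117 of 178 members lie below 0 and the lowest, a U7 copy, Mir3074 and SNORD14, reach -1.70, -1.59 and -1.56.

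The groups did not overlap in FPKM for 6 members (2.65%), beside 2.6% of all genes, so their number was that of the background. The share was 1.24% of all genes for values lower in aged samples and 1.36% for higher ones. Among members, a snoRNA named SNORA17 stood higher in aged samples, and the microRNA genes AABR07060291.1, AABR07072755.1 and Mir3074, a U7 copy and a second SNORA17 copy were lower. The last 3 of these and SNORD14 averaged under 10 fragments and were chosen after their values were seen.

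Summed levels of markers of other testis cells were highest in aged replicate 2 and then in aged replicate 1. The summed level of 7 Leydig cell markers ranged from 5.11 to 8.16 FPKM over young libraries and from 10.9 to 123 FPKM over aged ones. Sertoli cell markers (11) summed to 25.1 to 33.1 and 32.1 to 132.5 FPKM, peritubular markers (8) to 64.4 to 95.7 and 100.3 to 249 FPKM, and macrophage markers (11) to 10.5 to 22.6 and 15.9 to 113 FPKM. The Sertoli and macrophage sums overlapped between groups. The other 2 did not, and they stood above all young libraries in aged replicates 3 to 5 too. As for all genes, 0 of the markers tested were called by limma. At an unadjusted p under 0.05 (limma) lay 7 of 8 peritubular, 8 of 10 macrophage, 2 of 3 Leydig and 2 of 5 Sertoli markers tested, beside 11.9% of all genes. All of these but 1 macrophage marker were higher in aged samples. None of these markers was at 0 in all libraries. Of 10 markers of meiotic spermatocytes, the cells before round spermatids, 8 were fitted lower in aged samples, with a median of -0.19 and sums of 448 to 485 and 422 to 475 FPKM. Of the 13 round spermatid markers, 9 were fitted higher, with a median of 0.09, and 0 markers of either list were called. At an unadjusted p under 0.05 (limma), 2 of the 10 spermatocyte markers were lower and 1 of the 13 round spermatid markers was higher. The part of these cells in the members' values was not tested. Without aged replicates 1 and 2 the median over members was -0.16. In that fit 26 members (11.5%) lay at an unadjusted p under 0.05, beside 7.49% of all genes, and 23 of them were lower (10.2%), beside 3.8% of all genes.

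Among the snoRNA genes, 34 belong to the H/ACA class by name and 22 to the C/D class. Their summed level was 50.8 ± 3.59 CPM in young and 45.8 ± 2.16 in aged samples (SD, n = 5), and the groups overlapped (47.3 to 54.8 and 43.7 to 49.3). The median difference on the log2 scale was -0.32 over the H/ACA genes, with 24 of 34 below 0, and -0.09 over the C/D genes, with 14 of 22 below 0. Lower genes of both classes include some that reached 1 FPKM only in the young mean, where no other direction is possible. Examples are SNORA12 (1.69 young, 0.414 aged) and SNORD83 (3.16 young, 0.885 aged). The medians thus rest in part on the level rule, and class medians without such genes are not given. All snoRNA medians kept this sign with TPM, quantile and voom scaling. Without aged replicates 1 and 2 the order turned, with -0.19 for H/ACA and -0.24 for C/D. In the test, 0 of the 59 snoRNA genes were called. At an unadjusted p under 0.05 (limma), 9 were lower (15.3%) and 2 higher (3.39%), beside 6.35% and 5.54% of all genes. Most of these 9 reached 1 FPKM only in the young mean and could only be lower. They were SNORD14, SNORD83 and a copy each of SNORA48, SNORA19, SNORA17 and SNORA44.

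SNORA44 (ENSRNOG00000054649, chromosome 10, 15536606 to 15536711, minus strand), an H/ACA guide, was the most abundant snoRNA at 189.0 FPKM. It had 367, 451, 330, 315 and 317 fragments in young replicates 1 to 5 and 257, 301, 307, 326 and 339 in aged replicates 1 to 5. Young replicate 2 stood highest and aged replicate 1 lowest, and the remaining libraries of the groups overlapped. Means were 208 ± 21.6 and 170 ± 24.7 FPKM (SD, n = 5), a log2 difference of -0.30 (SE 0.10). The limma adjusted p was 0.36. It lies between genes, 2161 bp from Luc7l on the opposite strand, which averaged 10.6 FPKM in both groups. A second SNORA44 copy averaged 1.9 fragments.

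The name SNORA17 covers 8 members on different chromosomes, which cannot be told apart where their sequences are near-identical and shared fragments were split or dropped. One copy (ENSRNOG00000054116, chromosome 3, 156985083 to 156985215, plus strand) held nearly all fragments, 182.4 per library, and the other 7 held 2.2 to 3.7 each. The abundant copy had 160, 183, 160, 166 and 160 fragments in young replicates 1 to 5 and 232, 189, 191, 188 and 195 in aged replicates 1 to 5. All aged libraries stood above all young ones. Means were 77.6 ± 3.99 and 87.5 ± 4.54 FPKM (SD, n = 5), a log2 difference of 0.17 (SE 0.05), with a limma adjusted p of 0.32. It lies inside Chd6, a chromatin remodeler, on the opposite strand, and Chd6 averaged 4.72 ± 0.255 and 4.81 ± 0.481 FPKM.

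The other 7 SNORA17 copies were all fitted lower in aged samples, so that the median over the name was -0.50 although its most abundant copy was higher. Most of these 7 reached 1 FPKM only in the young mean, where no other direction is possible. ENSRNOG00000058294, for example, had means of 1.86 (young) and 0.387 FPKM (aged). This median therefore rests largely on the level rule. Another of the 7 (ENSRNOG00000059967, chromosome 5) had 4, 4, 3, 7 and 6 fragments in the young and 2, 3, 3, 2 and 3 in the aged replicates. Its groups did not overlap in FPKM, but no library had more than 7 fragments.

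SNORD49 (ENSRNOG00000057240, chromosome 10, 48927721 to 48927791, plus strand), a C/D guide, was 1 of the 3 members with a mean of at least 10 fragments that were higher at an unadjusted p under 0.05. It had 9, 12, 7, 8 and 7 fragments in young and 17, 14, 10, 9 and 14 in aged replicates. The groups overlapped. The log2 difference was 0.43 (SE 0.15), with a limma adjusted p of 0.36.

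SNORD14 (ENSRNOG00000057762, chromosome 1, 185329782 to 185329868, plus strand), a C/D RNA needed for 18S ribosomal RNA maturation, had 0, 4, 4, 5 and 3 fragments in young replicates 1 to 5 and 0 in each aged replicate. Over the groups, 16 young fragments stood against 0. Its means were 2.32 and 0 FPKM, so it met the level rule through the young samples only and could only be lower. The limma adjusted p was 0.32 with all libraries and 0.000155 without young replicate 1, the young library at 0. Each library was left out in turn, and this one held the only young value equal to the aged ones. With voom, a fit added after seeing the data, the adjusted p was 0.170 without that library. The nearest gene on its strand, Pik3c2a, a lipid kinase 3468 bp away, averaged 5.99 ± 0.493 and 5.13 ± 0.131 FPKM.

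**Figure D4:**
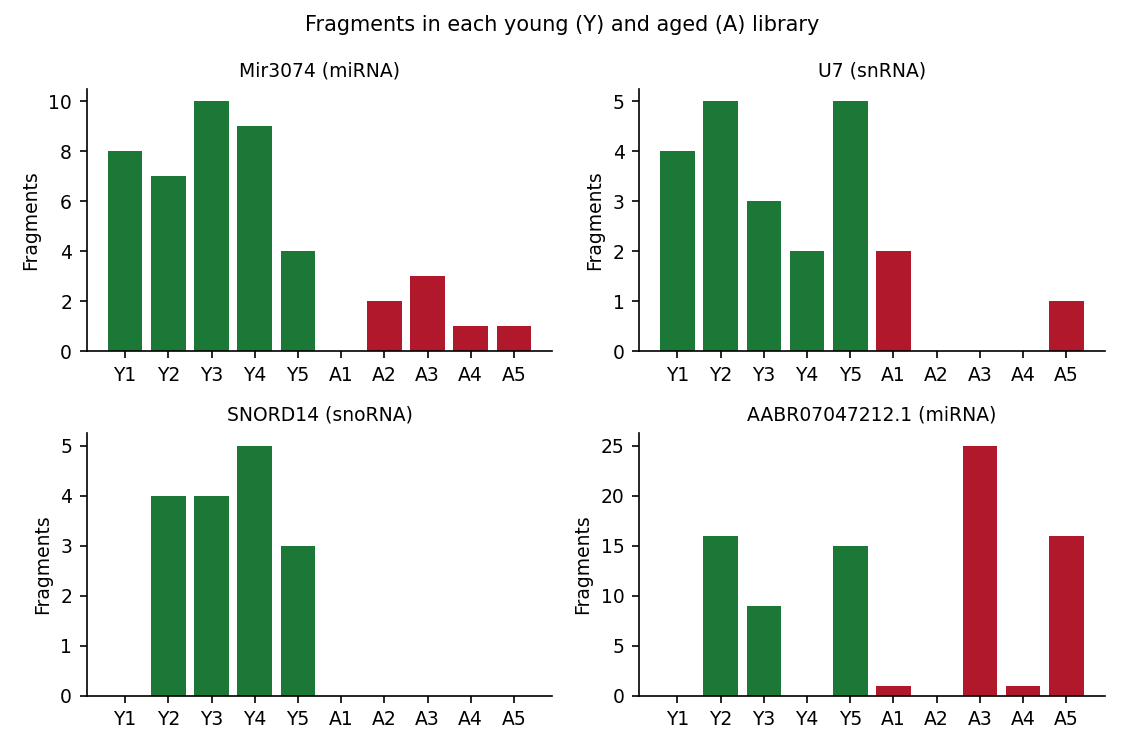
Recovered fragments (y axis, from 0) of 4 members in each young (Y1 to Y5) and aged (A1 to A5) library. Mir3074, a U7 copy and SNORD14 rest on at most 10 fragments per library, and AABR07047212.1 is high in Y2, Y3, Y5, A3 and A5 and at 0 or 1 in the others.

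The 3 scaRNA genes were at 1.62 to 1.89 FPKM, with 3.7 to 4.0 fragments per library. SCARNA21, inside Fbxo3, had 5, 5, 2, 5 and 6 fragments in young and 2, 4, 2, 1 and 5 in aged replicates. One SCARNA20 copy (ENSRNOG00000061095, inside Wbscr22) had 2, 2, 0, 5 and 3 in young and 3, 5, 5, 13 and 2 in aged replicates. The other copy (ENSRNOG00000057339, inside Diablo on the opposite strand) had 14, 4, 3, 2 and 5 against 3, 1, 0, 1 and 5. All 3 genes overlapped between groups, and single libraries set the highest value of both SCARNA20 copies. No scaRNA gene was called. The copy ENSRNOG00000057339 had a log2 difference of -0.92, with a limma unadjusted p of 0.038 and adjusted p of 0.41. An unadjusted p under 0.05 was found for 11.9% of all genes. This copy reached 1 FPKM only in the young mean and could only be lower.

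The 50 snRNA genes are copies of the spliceosomal and related snRNAs: 34 are named U6, 5 U1, 4 U2, 3 U7, 2 U4 and 2 U12. They are a small part of the annotated copies, which number 919 for U6 and 220 for U1. Their sum was 22.8 ± 3.42 CPM in young and 19.3 ± 1.65 in aged samples (SD, n = 5), and the groups overlapped. Of the 50, 36 were fitted below 0, with a median of -0.20 on the log2 scale. In the test 0 were called. At an unadjusted p under 0.05 (limma), 5 were lower (10%) and 0 higher, beside 6.35% and 5.54% of all genes. With voom 3 were lower and 0 higher, beside 4.55% and 7.24% of all genes. Of the 5 lower with limma, a U7 copy reached 1 FPKM only in the young mean and could only be lower.

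The U6 copies held 190, 198, 171, 240 and 127 fragments in young replicates 1 to 5 and 194, 141, 148, 167 and 131 in aged replicates 1 to 5. Young replicate 5 was the lowest of all and young replicate 4 the highest, so the groups overlapped. No U6 copy averaged more than 14.2 fragments, and their median difference was -0.16, with 24 of 34 below 0. The median was -0.19 with TPM, -0.18 with quantile and -0.24 with voom scaling.

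The U1 copies held 521 fragments in the 5 young and 535 in the 5 aged libraries. The most abundant (ENSRNOG00000053284, chromosome 1, 53584248 to 53584410, minus strand) lies inside Unc93a on its strand and had 38, 48, 43, 36 and 39 fragments in young and 53, 58, 46, 23 and 47 in aged replicates. Aged replicates 2 and 4 were its highest and lowest libraries. Its level was 15.6 ± 1.85 and 16.3 ± 4.88 FPKM, while Unc93a was at 21.6 ± 0.944 and 21.0 ± 2.38 FPKM. The next (ENSRNOG00000051874, chromosome 17) lies between genes and had 33, 39, 31, 32 and 19 fragments in young and 22, 30, 33, 29 and 35 in aged replicates. Neither copy differed beyond the spread between libraries.

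The 3 U7 copies summed to 9, 12, 16, 7 and 6 fragments in young and 6, 2, 7, 1 and 4 in aged replicates, which overlapped. One copy (ENSRNOG00000059791, chromosome 1, 178144031 to 178144094, plus strand, inside Btbd10 on the opposite strand) had 4, 5, 3, 2 and 5 fragments in young and 2, 0, 0, 0 and 1 in aged replicates. Its groups did not overlap in FPKM, though young replicate 4 and aged replicate 1 both had 2 fragments. The limma adjusted p was 0.29. Btbd10 averaged 97.4 ± 6.80 and 100.8 ± 6.32 FPKM.

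U2 copies summed to 215 young and 177 aged fragments, U4 copies to 72 and 57, and U12 copies to 61 and 66. All these groups overlapped by library. For U2, aged replicate 2 had 17 fragments and the other aged libraries 30 to 55.

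The microRNA class held most fragments, 126 ± 2.60 CPM in young and 117 ± 4.91 in aged samples (SD, n = 5), with overlap between 122.0 to 128 and 109.9 to 123. The 37 genes with a Mir symbol had a median difference of -0.29 and the 77 clone-named genes one of -0.04 on the log2 scale, signs that TPM, quantile and voom scaling kept. Without aged replicates 1 and 2 the medians were -0.20 and -0.04. In the test 0 of 114 were called. At an unadjusted p under 0.05 (limma), 10 were lower (8.77%) and 1 higher (0.877%), beside 6.35% and 5.54% of all genes. Of these 10, Mir3074, AC115159.1 and Mir1249 reached 1 FPKM only in the young mean and could only be lower.

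Mir1956 (ENSRNOG00000043562, chromosome 2, 243819838 to 243819900, plus strand), the source of the miR-1956 arms shown above, had the highest FPKM of all members, 330.4 over 63 bp. It had 454, 325, 331, 310 and 423 fragments in young replicates 1 to 5 and 301, 286, 315, 389 and 299 in aged replicates 1 to 5. Young replicates 1 and 5 and aged replicate 4 stood above the rest, and the groups overlapped. Means were 364.5 ± 65.5 and 296 ± 42.0 FPKM (SD, n = 5), a log2 difference of -0.29 (SE 0.13), with a limma adjusted p of 0.41. It lies 796 bp from Eif4e, the cap-binding translation factor, on the same strand, which averaged 78.2 ± 8.03 and 72.0 ± 3.54 FPKM. Eif4e too was highest in young replicates 1 and 5 (87.1 and 86.6 FPKM), but it was not raised in aged replicate 4 (72.2 FPKM). A link between the 2 genes was not tested.

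Of the clone-named genes, AC120262.2 (chromosome 1, 198938282 to 198938405, plus strand, inside Zfp629 on the opposite strand) averaged 94.3 FPKM and AC109877.1 (chromosome 3, 62481249 to 62481322, plus strand) 115.5 FPKM. AC120262.2 had 232, 215, 183, 201 and 163 fragments in young and 182, 183, 231, 176 and 171 in aged replicates. AC109877.1 had 99, 163, 104, 144 and 127 in young and 204, 131, 162, 165 and 128 in aged replicates. Both overlapped between groups, with log2 differences of -0.16 (SE 0.09) and 0.23 (SE 0.13). AC109877.1 lies 1 bp from Hnrnpa3, an RNA-binding protein gene on the same strand, at 90.4 ± 4.71 and 93.9 ± 4.28 FPKM.

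AABR07060291.1 (chromosome 4, 66236902 to 66236970, plus strand) had 30, 22, 17, 21 and 22 fragments in young and 17, 10, 20, 14 and 15 in aged replicates. In FPKM, which allows for library size, its groups did not overlap: means were 20.1 ± 3.45 and 12.8 ± 2.83 (SD, n = 5), a log2 difference of -0.62 (SE 0.15). AABR07072755.1 (chromosome 2, 189356605 to 189356664, minus strand) had 14, 21, 13, 18 and 14 fragments in young and 14, 8, 12, 9 and 9 in aged replicates. Its FPKM did not overlap either, with a log2 difference of -0.66 (SE 0.13). Both had a limma adjusted p of 0.32. The second lies inside Ubap2l, an RNA-binding protein gene on its strand, at 69.4 ± 2.53 and 68.5 ± 3.05 FPKM, and the first lies 3672 bp from Ubn2.

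Mir3064 and AABR07030590.1 both lie inside Ddx5, an RNA helicase gene on their strand that averaged 712.5 ± 13.2 FPKM in young and 702 ± 38.3 in aged samples. Mir3064 (chromosome 10, 94982051 to 94982117, minus strand) had 21, 31, 24, 29 and 27 fragments in young and 24, 22, 24, 16 and 23 in aged replicates. Its groups overlapped, and the log2 difference was -0.35 (SE 0.12), with a limma adjusted p of 0.36. AABR07030590.1 (94982505 to 94982605 of the same strand) had 101, 90, 68, 90 and 84 against 96, 85, 93, 84 and 85 fragments. Its log2 difference was -0.04 (SE 0.06), so the pair inside Ddx5 had unlike fitted values, and the difference between them was not tested.

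AABR07030265.1 (chromosome 10, 78799777 to 78799872, plus strand) was the member with the smallest p among higher microRNA genes with at least 10 fragments. It had 24, 26, 16, 32 and 26 fragments in young and 38, 30, 27, 39 and 35 in aged replicates. The log2 difference was 0.36 (SE 0.14), with a limma adjusted p of 0.39, and the groups overlapped.

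Mir3074 (ENSRNOG00000035568, chromosome 17, 823940 to 824056, minus strand) had 8, 7, 10, 9 and 4 fragments in young replicates 1 to 5 and 0, 2, 3, 1 and 1 in aged replicates 1 to 5. Every young library stood above every aged one. Means were 4.07 ± 1.38 and 0.711 ± 0.566 FPKM (SD, n = 5), a log2 difference of -1.59 (SE 0.25), with a limma adjusted p of 0.28. Without aged replicates 1 and 2 the difference was -1.46. The nearest gene, Npepo, lies 2358 bp away on the opposite strand and averaged 13.2 ± 0.897 and 13.0 ± 0.563 FPKM.

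Mir3566 had 42, 51, 46, 39 and 46 fragments in young and 43, 27, 55, 42 and 44 in aged replicates. Mir760 had 29, 19, 33, 21 and 30 against 22, 19, 32, 32 and 27. Both overlapped between groups, with log2 differences of -0.19 (SE 0.14) and -0.08 (SE 0.20). Mir132 and Mir212, whose 3p arms share the seed AACAGUC, lie 183 bp apart on chromosome 10 and averaged 15 and 3.5 fragments. Mir132 had 17, 17, 9, 12 and 21 in young and 18, 8, 24, 17 and 7 in aged replicates. Mir25 on chromosome 12 and Mir92b on chromosome 2, whose 3p arms share the seed AUUGCAC, averaged 3.2 and 2.9 fragments. The smallest limma adjusted p of these 4 genes was 0.589, that of Mir25.

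The ratio of variance to mean of the fragments over the 10 libraries is 1 for pure counting error. The same relative variation of levels raises it less at low counts than at high ones. Its median was 1.497 over the 136 members under 5 fragments, beside 1.20 over 69 other genes of that depth, and 1.704 beside 1.53 at 5 to 10 fragments. At 10 to 30 fragments it was 1.54 beside 1.81, and at 30 or more 2.77 over 17 members beside 4.46 over other genes, which reach far higher counts. The ratio was 11.2 for Mir1956, 8.64 for SNORA44 and 5.54 for AABR07029204.1 (inside Srrm2), the highest of the 20 members with most fragments. AABR07029204.1 had 77, 96, 89, 99 and 61 fragments in young and 88, 54, 98, 83 and 35 in aged replicates, with aged replicates 2 and 5 lowest.

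**Figure D5:**
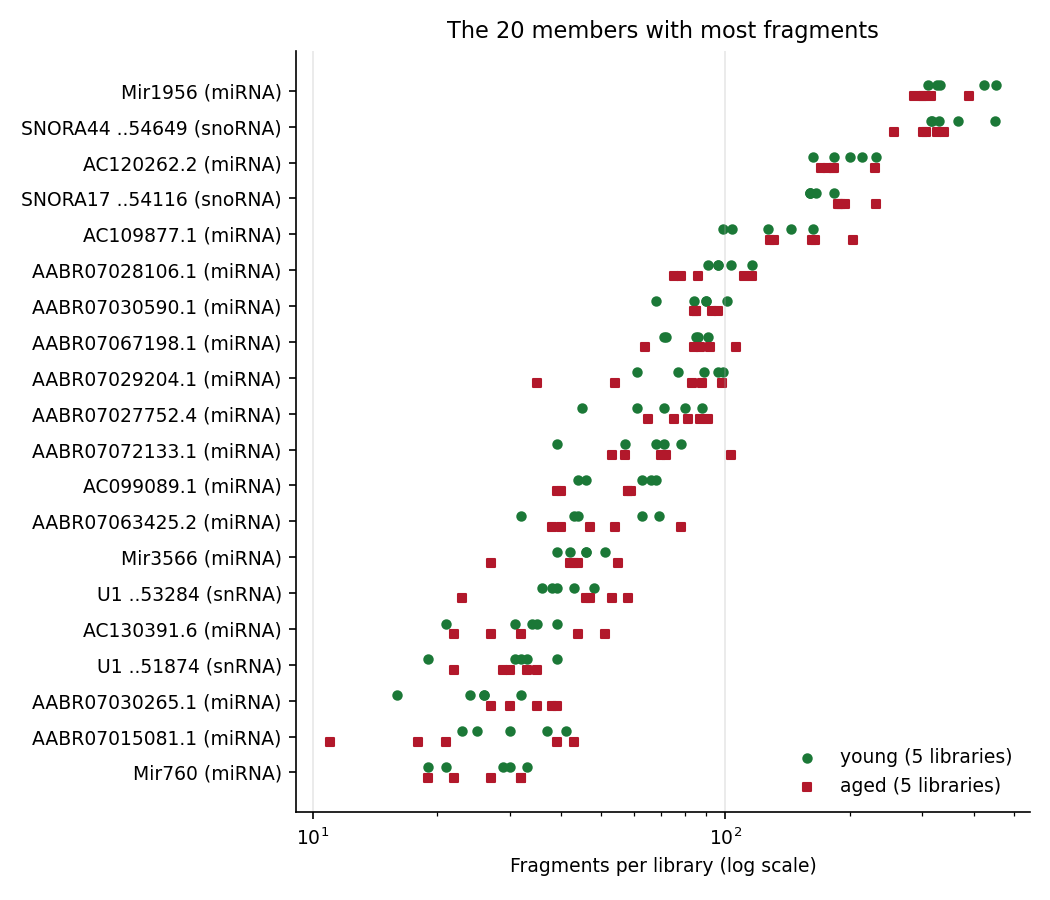
Recovered fragments per library (x axis, log scale) of the 20 members with most fragments, with 1 point per young (green circles) or aged (red squares) library; numbers after 2 dots are the last digits of the gene identifier where a name has several copies. The groups are apart only for SNORA17, at 160 to 183 fragments in young and 188 to 232 in aged libraries.

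AABR07047212.1 (chromosome 5, 24145741 to 24145865, plus strand), chosen after its values were seen, was present in some libraries of both groups and nearly missing in the others. It had 0, 16, 9, 0 and 15 fragments in young and 1, 0, 25, 1 and 16 in aged replicates, a variance-to-mean ratio of 9.80 at a mean of 8.3 fragments. Young replicates 2, 3 and 5 and aged replicates 3 and 5 were high. MGC94199, which begins 306 bp away on the same strand, had FPKM values of 1.03, 11.7, 1.76, 1.98 and 16.3 in young and 0.668, 3.02, 11.8, 3.42 and 1.83 in aged replicates. It was high in young replicates 2 and 5 and aged replicate 3, where the microRNA gene was high too, but low in young replicate 3 and aged replicate 5.

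By position, 127 members lay between other genes, 63 inside a gene on its strand and 29 inside a gene on the other strand, and 7 overlapped a gene in part. The 68 members that share bases and strand with another gene had 64 such hosts, of which 62 could be tested. Fragments of these members and their hosts cannot be told apart by position where counting gives them to 1 of the 2. The hosts ranged from 0.250 to 707 FPKM with a median of 25.7, and only 6 of the 68 members had a higher FPKM than their host. Hosts had a median log2 difference of -0.02, while the members inside them had one of -0.20, with 50 of 68 below 0. Some of these lower members, such as SNORD83 and SNORA12, reached 1 FPKM only in the young mean, where no other direction is possible. Most hosts lie far above that level, so the medians of members and hosts are not on equal terms. Of the 62 hosts tested, 0 were called and 11 lay at an unadjusted p under 0.05 (limma), beside 11.9% of all genes. SNORA42, inside the polyamine enzyme gene Odc1, had means of 12.1 (young) and 7.88 FPKM (aged), and Odc1 of 96.4 and 97.3 FPKM. Neither was called.

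Genes for the proteins that make, bind or process these RNAs showed no called difference. Of 12 tested genes for snoRNA-protein complexes, 7 were fitted higher and 5 lower, with a median of 0.03. Fbl, the C/D methyltransferase, stood at 7.58 ± 0.797 and 8.83 ± 1.30 FPKM (SD, n = 5), and Nop56, a C/D core protein, at 2.02 ± 0.325 and 2.48 ± 0.477. Of 28 genes for snRNA-protein complexes and Cajal bodies, 15 were fitted higher and 13 lower, with Snrpb and Snrpd1, of the Sm ring, at 4.85 ± 0.815 and 5.80 ± 1.74 and at 17.1 ± 1.60 and 16.9 ± 3.42 FPKM. Of the 9 Lsm ring genes tested, 4 were fitted higher and 5 lower, and Lsm2 stood at 22.1 ± 1.22 and 20.9 ± 2.70 FPKM.

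Of 17 genes for snRNA transcription and 3′ processing, 6 were fitted higher and 11 lower, with a median of -0.03, and Snapc2 stood at 36.9 ± 2.34 and 37.7 ± 2.10 FPKM. Of 11 microRNA processing genes, 2 were fitted higher and 9 lower, with a median of -0.06. Drosha, the nuclease that cuts hairpins from primary transcripts, stood at 9.22 ± 0.390 and 8.54 ± 0.326 FPKM, and its partner Dgcr8 at 5.80 ± 0.838 and 4.93 ± 0.522. Of 24 known snoRNA host genes 15 were fitted higher and 9 lower, with a median of 0.05, and Eef2, a translation elongation factor, stood at 581 ± 6.20 and 583 ± 12.3 FPKM. In none of these 6 lists was a gene called by limma.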

How the data were processed

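RNA of 10 rat round spermatid samples, 5 young and 5 aged, was analysed. The authors deposited FPKM values per gene, with gene lengths, classes and coordinates per the file headers. HISAT2 2.0.5 and featureCounts 1.5.0-p3 are listed in the submitters' processing notes. Not given in the sources used here: strand, treatment of shared fragments and the build, so coordinates stand as in the files. Whole fragments were recovered from FPKM, gene length and each library's step (100% whole within 0.001), giving 14488222 to 18203223 fragments per library.

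The test was limma 3.58.1 (R 4.3.3, trend) on log2(FPKM + 1), two-sided, over the 12985 genes averaging 1 FPKM or more, adjusted by Benjamini-Hochberg at a threshold of 0.05; differences of low genes are understated on this scale. The deposited unit is FPKM, so a count model was not the main test; voom on recovered fragments was an alternative. Others were a pseudocount of 0.1, other filters and scalings, a replicate block and left-out libraries. The tests were tested on simulated data with changes placed only in genes of at least 100 fragments on average, a depth that 5 members reached. That trial says nothing of the tests at the depth of most members. CPM were computed from the recovered totals. Samples with the same number did not deviate together, so they were not paired.

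Members, gene lists and the rule for named genes were chosen with earlier results of these data known. The rule names the 20 members with most fragments, the 5 with highest FPKM, the 3 per direction with smallest p among those with at least 10 fragments, the 3 of greatest spread, rows at the level limit, members without overlap, all scaRNA genes, hosts and the first 2 genes per list.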

Additional observations from a re-analysis of the deposited data

Results flagged for a closer look

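In 78 groups of 5 libraries, 1 for each group and named gene or class sum checked, 4 had a library far from the other 4, where chance flags about 1 in 20. The U1 copy ENSRNOG00000051874 had 7.416 FPKM in young replicate 5, below the 11.77 to 13.35 of the remaining young libraries. Mir3064 had 14.21 FPKM in aged replicate 4, below the 19.29 to 21.09 of the remaining aged libraries. The SCARNA20 copy ENSRNOG00000061095 had 5.818 FPKM in aged replicate 4, above the 0.9238 to 2.293 of the rest of its group. The copy ENSRNOG00000057339 had 6.797 FPKM in young replicate 1, above the 1.026 to 2.656 of the rest.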

How the results depend on the processing

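Over 20 settings other than the main one, 0 genes were called except without young replicate 1 (SNORD14) or without young replicate 2 (a gene that is no member). The median over members, -0.17, was -0.27 with a pseudocount of 0.1, -0.092 at a minimum of 5 FPKM and -0.082 with no filter. The 28 members at an unadjusted p under 0.05 became 92 of 1044 genes of the classes at a minimum of 0.1 FPKM. They became 88 of 1525 with no filter and 11 of 58 at 5 FPKM. Shares of all genes in these fits are not given, so these counts cannot be set against a background. Where both group means were at least 1 FPKM, a limit added after seeing the data, they were 17 of 187 (9.09%), beside 11.1% of all genes in that fit. The list of snRNA transcription genes, at a median of -0.025, was at -0.070 at a minimum of 5 FPKM and at -0.066 with quantile scaling, and at -0.069 to -0.014 with each library left out. With each library left out in turn, 0 to 1 genes were called and the median over members was -0.21 to -0.13. Members at an unadjusted p under 0.05 then numbered 27 to 37, and the shares of all genes in those fits are not given. The ratio of aged to young CPM was 0.904 to 0.922 for all members. By class it was 0.886 to 0.921 for snoRNA, 0.801 to 0.886 for snRNA, 0.914 to 0.940 for miRNA and 0.712 to 0.956 for scaRNA genes.

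Of 34 named members, 23 kept their sign in every setting, and 44 of 671 values had the opposite sign. AABR07067198.1 was at 0.012 with TPM, 0.0033 with quantile and 0.021 with voom scaling. Without aged replicates 1 and 2, AABR07063425.2 was at 0.10, Mir3566 at 0.00037, the U1 copies ENSRNOG00000053284 and ENSRNOG00000051874 at -0.19 and 0.034, Mir760 at 0.15, AABR07047212.1 at 0.70 and snoU2_19 at -0.067, and snoU2_19 was at -0.21 with a pseudocount of 0.1. With each library left out, the ranges that crossed 0 were -0.058 to 0.095 for AABR07067198.1, -0.011 to 0.25 for AABR07027752.4, -0.081 to 0.18 for AABR07072133.1, -0.22 to 0.062 for AABR07063425.2, -0.10 to 0.22 and -0.24 to 0.018 for the U1 copies, -0.15 to 0.15 for AC130391.6, -0.22 to 0.037 for Mir760, -0.69 to 0.22 for AABR07047212.1 and -0.24 to 0.34 for snoU2_19. The cause was not tested. Without Mir1956 and SNORA44, a setting chosen after seeing the data, the ratio for all members was 0.934, and some libraries of the groups then overlapped.

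Replicate numbers are shared between the groups, but the correlations of same-numbered libraries were -0.158 to 0.0541, 0 of 5 over 0.1, and 1 library of 5 correlated best with its own number. With the replicate block, 0 genes were called and 41 members (18.1%), 36 of them lower (15.9%), lay at an unadjusted p under 0.05, beside 9.66% and 4.90% of all genes in that fit. Depth limits these values: the median member has 3.85 fragments per library.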
